A study of Drosophila melanogaster with 18 samples.

Results

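The mitochondrial ribosomal protein genes of Drosophila melanogaster are those whose symbol is mRpL or mRpS followed by a number. Probe sets annotated to exactly 1 such symbol were taken, and the brightest probe set of each gene by its mean over 18 arrays stood for the gene. This gave 64 genes from 66 probe sets, of 10843 named genes and 13966 probe sets on the array, with 43 genes named for the large subunit (mRpL) and 21 for the small subunit (mRpS). The RefSeq gene table holds 73 such symbols, and 9 of them had no probe set of their own here: mRpL27, mRpL34, mRpL37, mRpL53, mRpS5, mRpS10, mRpS14, mRpS21 and mRpS23. Their RNA was measured in a study that reduced the ecdysone receptor, EcR, by RNA interference around pupariation, with 6 groups of 3 arrays. EcRi animals carried hs-EcRi-11, whose heat-inducible promoter drives double-stranded RNA matching the EcR common region, and were heat-treated 2 times at 37 °C for 1 h, at 24 and 18 h before pupariation. Control animals were of the w1118 strain, and the sources used here do not say whether they were heated too. Strain, transgene and heat therefore cannot be told apart in the comparison of EcRi with control animals. Both kinds were collected as wandering larvae with clear guts at -4 h and as prepupae at 0 and 4 h relative to pupariation, and each array read RNA of 10 whole animals from an independent collection.

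Mitochondria hold their own ribosome, the mitoribosome, which translates the few proteins still encoded in mitochondrial DNA. In animals these proteins are all subunits of the oxidative phosphorylation complexes. The RNAs of the mitoribosome are transcribed inside the organelle, whereas its proteins are encoded by nuclear genes, made in the cytoplasm and imported. Some of them descend from bacterial ribosomal proteins and others have no bacterial counterpart. Pupariation is triggered by a pulse of the steroid 20-hydroxyecdysone, acting through EcR, and opens the breakdown of larval tissues and the growth of adult ones.

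A value is the intensity of a probe set, a linear measure of hybridised RNA that the authors normalised between arrays. Values under a floor of 91.6 were raised to it before log2 was taken, and 58 of the 64 genes lay above it on all arrays. Their mean intensities lay between 94.6 (mRpS25) and 900 (mRpS7), although the intensities of different probe sets are not comparable as RNA amounts. Correlation with the most similar other array was 0.974 to 0.995 for 16 arrays. Of these, EcRi 4 h replicates 1, 2 and 3 had 0.974, 0.976 and 0.974, and the others 0.992 to 0.995. The correlation was 0.933 for EcRi 0 h replicate 1 and 0.939 for control -4 h replicate 1, and fits that omit this pair are given as "without 2 arrays". EcRi 4 h replicates 1 and 3 lay to the same side along the main axis of spread within groups, and fits that omit them as well are given as "without 4 arrays". Those fits leave 1 EcRi array at 4 h, replicate 2, whose spread is taken to be that of the other groups. The axis is taken from deviations within groups, so the loadings of a group balance each other. Replicate 2 (loading -0.262) thus had to lie opposite the omitted pair (0.0876 and 0.175), and the loadings cannot show which of them departs. EcRi values at 4 h without 4 arrays are those of 1 array and not a check over replicates. The choice of these arrays rests on all probe sets, not on the genes described here. The brighter EcR probe set read 557, 573 and 557 on EcRi arrays against 533, 521 and 547 on control arrays at -4 h. At 0 h it read 387, 548 and 487 in EcRi against 478, 448 and 485 in control prepupae, and 510, 533 and 520 in EcRi against 467, 484 and 517 in control prepupae at 4 h. The dimmer EcR probe set read 191, 218 and 207 in EcRi against 251, 303 and 324 in control larvae at -4 h (-0.51 ± 0.13 on the log2 scale, limma adjusted p = 0.067, under the 1.5-fold limit). At 0 h it read 288, 215 and 208 in EcRi against 152, 204 and 184 in control prepupae, and at 4 h 215, 192 and 215 in EcRi against 156, 161 and 167 in control prepupae. These differences were 0.39 ± 0.13 (adjusted p = 0.098) and 0.36 ± 0.13 (adjusted p = 0.086), and the change of the EcRi effect from -4 to 0 h was called for this probe set (0.90 ± 0.19, adjusted p = 0.042). The sources used here do not say whether either probe set also reads transgene RNA, so neither checks the labels.

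The mitochondrial ribosomal protein genes were nearly level over the 6 groups. The highest and lowest of a gene's 6 group means differed by a median of 0.35 on the log2 scale, and by less than 1.5-fold for 53 of 64 genes (82.8%). Among the 9488 probe sets above the floor on all arrays the median was 0.49 and 61.5% stayed below 1.5-fold. Without 2 arrays 58 genes stayed below 1.5-fold (90.6%, against 67.7% of those probe sets), and without 4 arrays 61 did (95.3%, against 74.3%). mRpS7, a small-subunit protein with a bacterial counterpart, was the most level without 2 arrays, with a range of 0.10, and mRpL18 of the large subunit followed with 0.11. mRpL33 had the widest range, 1.12, and was the one gene with a range of 2-fold or more. Without 4 arrays its range was 0.66, mRpL19 had the widest (0.78) and 0 genes reached 2-fold. In RNA of whole animals, fewer cells of a type and less RNA per cell cannot be told apart.

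**Figure D1:**
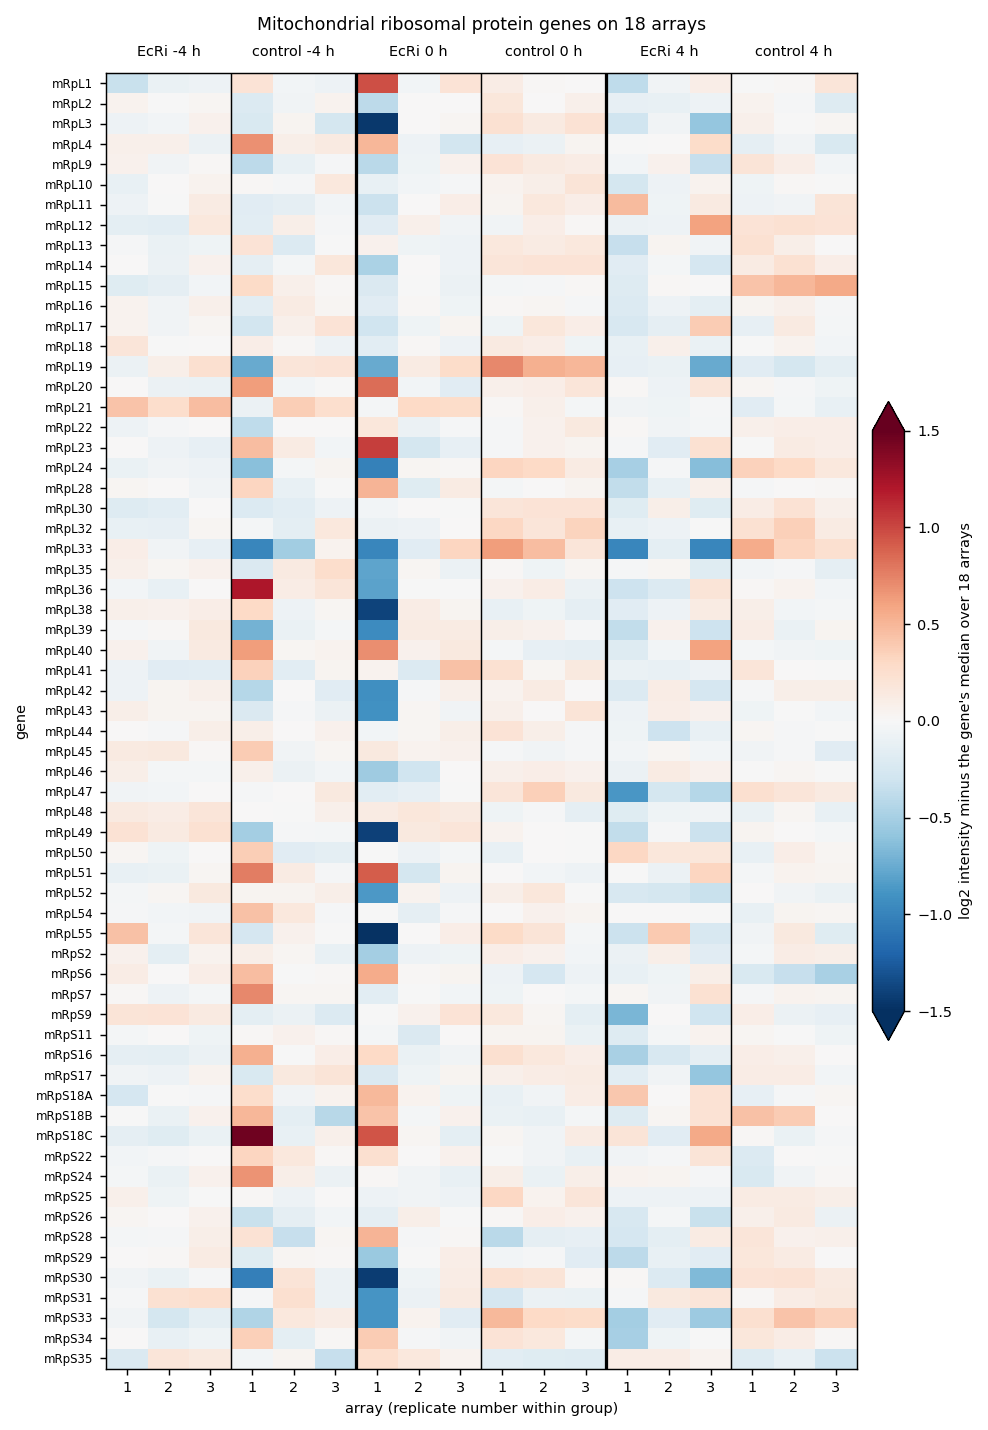
Log2 intensity of each of the 64 genes (rows) on each of the 18 arrays (columns, replicates 1 to 3 of each group), shown as the difference from the gene's median over all arrays, with red above and blue below it. Most cells are pale, and the deepest colours stand in the columns of EcRi 0 h replicate 1 and control -4 h replicate 1.

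The same plot shows that the spread was concentrated on a few arrays. On EcRi 0 h replicate 1, 8 genes lay more than 1 log2 unit below the mean of the other EcRi 0 h arrays and 3 lay more than 1 above, and 27 of 64 differed from it by more than 0.5. Over all probe sets 12.8% lay more than 1 below and 8.05% more than 1 above on that array. On control -4 h replicate 1, 16 of the genes were off by more than 0.5, 1 of them by more than 1 below and 2 by more than 1 above. Either the lowest or the highest of a gene's 18 values stood on 1 of these 2 arrays for 50 genes (78.1%), against 70.7% of the probe sets above the floor on all arrays. The genes did not move together there: mRpL49 and mRpS30 were among the low ones on EcRi 0 h replicate 1, and mRpL23 and mRpS18C among the high ones.

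mRpS18C, 1 of 3 genes named for the S18 family, shows the high case. It read 673, 650 and 689 on EcRi arrays against 2020, 681 and 776 on control arrays at -4 h. At 0 h the values were 1420, 751 and 667 in EcRi against 754, 711 and 801 in control animals, and at 4 h 840, 654 and 1090 in EcRi against 743, 688 and 729 in control animals. All 4 arrays of the larger left-out set lay above the other 14. mRpL33, mRpS33, mRpL24, mRpL49 and mRpL55 were among 12 genes for which all 4 lay below the other 14, and mRpS18A was the other gene for which all 4 lay above. Together these were 14 of 64 genes (21.9%), against 20.9% of the 9488 probe sets above the floor on all arrays. The 2 directions were less even among the genes, with 12 below and 2 above, than among those probe sets, with 1050 below and 933 above. That difference was not tested.

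EcRi animals were set beside control animals of the same age. A probe set was called where limma gave a Benjamini-Hochberg adjusted p under 0.10 over all 13966 probe sets and the change was at least 1.5-fold, which is 0.585 on the log2 scale. P-values are two-sided, and errors of log2 differences are standard errors of the fit. The median standard error of the 64 genes was 0.14, with a range of 0.04 to 0.36.

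At -4 h none of the mitochondrial ribosomal protein genes was called in EcRi larvae, neither higher nor lower. The median log2 difference was -0.01, beside 0.00 for all probe sets, and the differences lay between -0.61 and 0.46. limma called 0 of 64 genes, against 2.94% of all probe sets, and 6 had an unadjusted p under 0.05 (3 higher, 3 lower), against 12.7% of all. The 95% interval of the difference lay wholly within 1.5-fold for 43 genes (67.2%), against 55.4% of all probe sets and 49.3% of those above the floor on all arrays. All 3 EcRi arrays lay above all 3 control arrays for 6 genes and below them for 8, against 15.4% and 14.9% of all probe sets.

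The widest differences at -4 h belonged to mRpS18C, mRpL36 and mRpL33, and in mRpS18C and mRpL36 control replicate 1 stood far above the other control arrays. mRpS18C differed by -0.61 ± 0.36 (adjusted p = 0.55), which became -0.12 ± 0.16 without 2 arrays. mRpL36, counterpart of a small zinc-binding protein of the bacterial large subunit, read 706, 675 and 730 in EcRi against 1690, 786 and 825 in control larvae. Its difference of -0.55 ± 0.27 (adjusted p = 0.43) became -0.20 ± 0.12 without 2 arrays. In mRpL33 the control larvae were spread over 85.6, 126 and 187. It differed by 0.46 ± 0.33 (adjusted p = 0.63) and, without 2 arrays, by 0.21 ± 0.27. None of the 3 was separated from control by the test with or without those arrays.

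At 0 h one gene, mRpS33, was called lower in EcRi prepupae and none was called higher. mRpS33 encodes a small-subunit protein without a bacterial counterpart. The call covered 1.56% of the genes, and limma called 7.69% of all probe sets, 4.68% as lower. The median difference of the 64 genes was -0.10, beside 0.00 for all probe sets, with a range of -0.70 to 0.39. The lower and upper quartiles were -0.30 and 0.10, beside -0.28 and 0.25 for the probe sets above the floor on all arrays. EcRi 0 h replicate 1 held the lowest of 18 values for 27 of the 64 genes (42.2%), against 33.1% of those probe sets. An unadjusted p under 0.05 was reached by 19 genes (4 higher, 15 lower), against 23.2% of all probe sets. All EcRi arrays lay above all control arrays for 8 genes and below them for 17, against 17.2% and 17.2% of all probe sets. The 95% interval stayed within 1.5-fold for 40 genes (62.5%), against 49.7% of all probe sets and 43.1% of those above the floor on all arrays.

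mRpS33 read 89.6, 175 and 150 in EcRi against 236, 207 and 204 in control prepupae at 0 h. The groups did not overlap, and the lowest value came from the array that stands apart. The difference was -0.68 ± 0.21 (n = 3 arrays per group, adjusted p = 0.067). Without 2 arrays it was -0.41 ± 0.12 with an adjusted p of 0.047, which is under 1.5-fold, so the call was lost and 0 of 64 genes remained called lower, against 3.0% of all probe sets. Without 4 arrays the count was 0 as well, against 3.59%. The call was also lost without any 1 of the control 0 h arrays (adjusted p = 0.12 to 0.22).

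mRpL19 and mRpL33, both large-subunit proteins with bacterial counterparts, differed by as much at 0 h without passing the test. mRpL19 read 68.3, 169 and 187 in EcRi against 255, 223 and 219 in control prepupae, a difference of -0.70 ± 0.29 (adjusted p = 0.17). mRpL33 read 68.6, 161 and 227 in EcRi against 279, 249 and 206 in control prepupae, a difference of -0.69 ± 0.33 (adjusted p = 0.23). Without 2 arrays the differences were -0.38 ± 0.17 and -0.34 ± 0.27. mRpL3, whose bacterial counterpart reaches toward the catalytic centre of the large subunit, read 113, 310 and 314 in EcRi against 361, 338 and 358 in control prepupae. Its difference of -0.66 ± 0.29 (adjusted p = 0.20) became -0.18 ± 0.13 without 2 arrays. In each of these genes EcRi 0 h replicate 1 gave the lowest of the 6 values.

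Some smaller differences at 0 h were more precise. With no fold limit 8 genes passed the adjusted p, 6 lower and 2 higher in EcRi, against 13.0% of all probe sets. mRpL48, a large-subunit protein without a bacterial counterpart, was higher in EcRi at 221, 229 and 224 against 195, 201 and 185 in control prepupae, a difference of 0.22 ± 0.04 (adjusted p = 0.0075). Its groups did not overlap although the means differ by under 1.5-fold. mRpS35 of the small subunit, also without a bacterial counterpart, was higher at 454, 424 and 395 in EcRi against 340, 334 and 333 in control prepupae, a difference of 0.34 ± 0.11 (adjusted p = 0.082). Without 2 arrays mRpL48 still passed the p (0.23 ± 0.05, adjusted p = 0.016) and mRpS35 did not (0.29 ± 0.13, adjusted p = 0.21).

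At 4 h 3 genes were called lower in EcRi prepupae, mRpL33, mRpS33 and mRpL47, and none was called higher. They were 4.69% of the genes, and limma called 13.4% of all probe sets, 9.08% as lower. The median difference was -0.12, beside 0.00 for all probe sets, with a range of -1.08 to 0.32. The lower and upper quartiles were -0.25 and 0.04, beside -0.29 and 0.26 for the probe sets above the floor on all arrays. An unadjusted p under 0.05 was reached by 17 genes (2 higher, 15 lower), against 30.5% of all probe sets. All EcRi arrays lay above all control arrays for 4 genes and below them for 19, against 24.0% and 23.3% of all probe sets. The 95% interval stayed within 1.5-fold for 36 genes (56.2%), against 48.0% of all probe sets and 40.2% of those above the floor on all arrays. mRpL24 of the large subunit missed the limit at -0.66 ± 0.26 (adjusted p = 0.10).

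**Figure D2:**
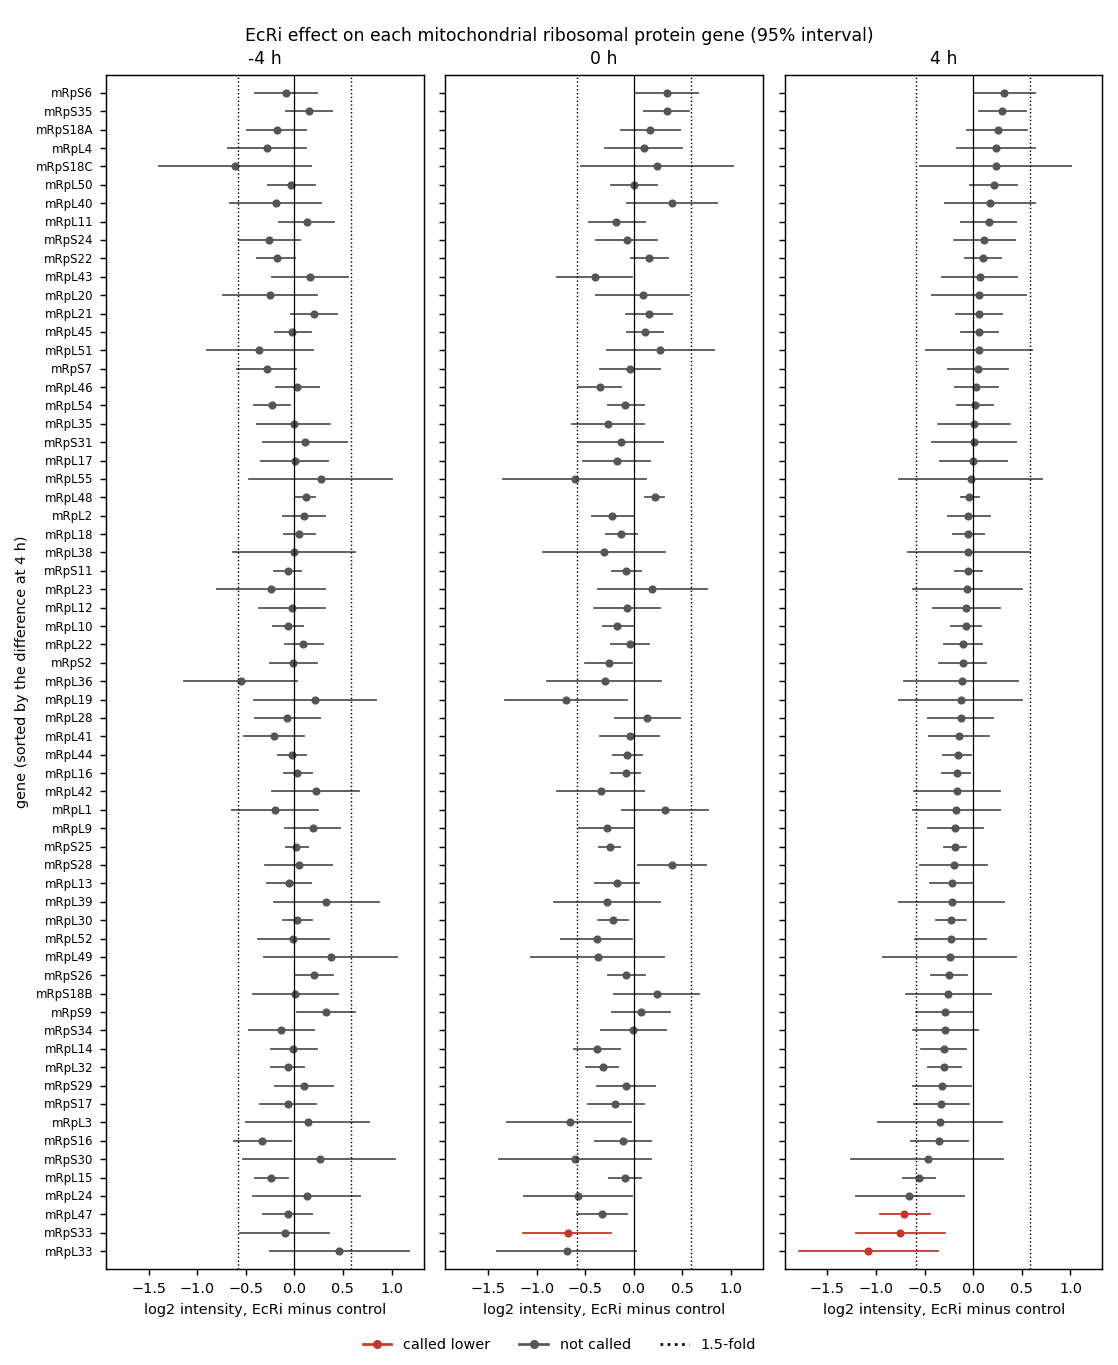
Log2 intensity in EcRi minus control animals for each gene at -4, 0 and 4 h (points) with the 95% interval of the limma fit (bars), sorted by the difference at 4 h; dotted lines mark 1.5-fold and red marks called genes. Called genes are absent at -4 h, mRpS33 is called at 0 h, and mRpL47, mRpS33 and mRpL33 are called at 4 h, at -0.71, -0.75 and -1.08.

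mRpL33 had the widest difference at 4 h. It read 51.5, 164 and 86.0 in EcRi against 267, 227 and 213 in control prepupae, so the groups did not overlap and 2 of the EcRi arrays were under the floor. The difference was -1.08 ± 0.33 (n = 3, adjusted p = 0.042), which is 2.11-fold lower and understated, since 2 of the 3 EcRi values were raised to the floor. That step also narrowed the spread between these arrays, so the standard error is understated too. The EcRi arrays were themselves far apart, and the call was lost without EcRi 4 h replicate 1 (adjusted p = 0.16), EcRi 4 h replicate 3 (0.14) or control 4 h replicate 1 (0.15). With replicate 2 as the 1 EcRi array at 4 h (without 4 arrays) the difference was -0.51 ± 0.27 with an adjusted p of 0.24.

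mRpS33 was lower again at 4 h, on other arrays than at 0 h. It read 119, 150 and 116 in EcRi against 200, 227 and 215 in control prepupae, a difference of -0.75 ± 0.21 (1.68-fold lower, adjusted p = 0.030). Without 4 arrays, with 1 EcRi array at 4 h, it was -0.52 ± 0.12 (adjusted p = 0.018), under the fold limit. Without EcRi 4 h replicate 1 (adjusted p = 0.11) or replicate 3 (0.10) the call was lost. At -4 h mRpS33 read 163, 141 and 152 in EcRi against 124, 189 and 182 in control larvae, with overlapping groups and a difference of -0.10 ± 0.21.

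mRpL47, counterpart of bacterial ribosomal protein L29 and named differently in mitochondria, was the most precise of the 3. It read 121, 185 and 166 in EcRi against 263, 252 and 244 in control prepupae at 4 h, a difference of -0.71 ± 0.12 (1.63-fold lower, adjusted p = 0.0014). The 3 EcRi 4 h values lay below all of the other 15 arrays. Without 4 arrays, on 1 EcRi array, the difference was -0.45 ± 0.09 (adjusted p = 0.0065), and without EcRi 4 h replicate 1 it was -0.53, both under 1.5-fold. At 0 h mRpL47 read 199, 204 and 222 in EcRi against 253, 284 and 247 in control prepupae, without overlap, at -0.33 ± 0.12 (adjusted p = 0.11).

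mRpL15, counterpart of a large-subunit protein of bacteria, passed the p at 4 h with the smallest unadjusted p among the 64 genes. It read 370, 430 and 425 in EcRi against 571, 600 and 627 in control prepupae. The difference of -0.56 ± 0.08 (adjusted p = 0.00034) fell short of the fold limit, and it was -0.48 ± 0.06 without 4 arrays (1 EcRi array, adjusted p = 0.0010). Control animals read 516, 447 and 429 at -4 h and 415, 421 and 429 at 0 h, while EcRi animals read 375, 388 and 414 at -4 h and 366, 424 and 398 at 0 h. The control 4 h arrays were above all of the other 15.

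**Figure D3:**
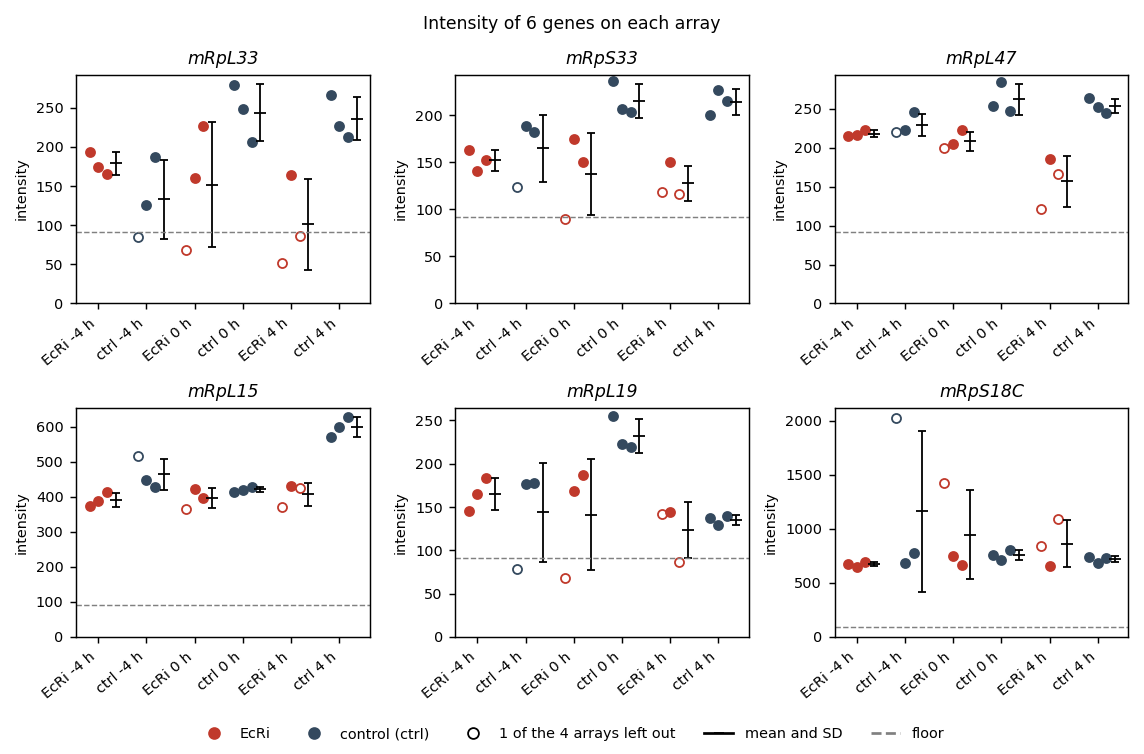
Intensity of 6 genes on each array (points), with the mean and SD of the 3 arrays of each group (bars) and the floor of 91.6 (dashed line); open points are the 4 arrays left out together. For mRpL33 and mRpS33 the open points are the lowest of 18 and for mRpS18C the highest, while for mRpL15 the control 4 h arrays (571 to 627) stand above the rest.

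Leaving out the arrays changed which genes were called at 4 h. Without 2 arrays 4 genes were called lower, mRpL24 in addition to the other 3, against 12.0% of all probe sets. mRpL24 then had a difference of -0.66 ± 0.13 (adjusted p = 0.0029, and -0.29 ± 0.08 on the 1 EcRi array left without 4 arrays), from 168, 234 and 152 in EcRi against 301, 292 and 265 in control prepupae. With 1 EcRi array left, without 4 arrays, 0 genes were called, against 3.81% of probe sets called lower. The range of the 64 differences at 4 h was then -0.52 to 0.43. At 0 h the range without 2 arrays was -0.41 to 0.29, and 16 genes moved by more than 0.3, whereas at -4 h the range was -0.29 to 0.33 and 4 genes moved that far.

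**Figure D4:**
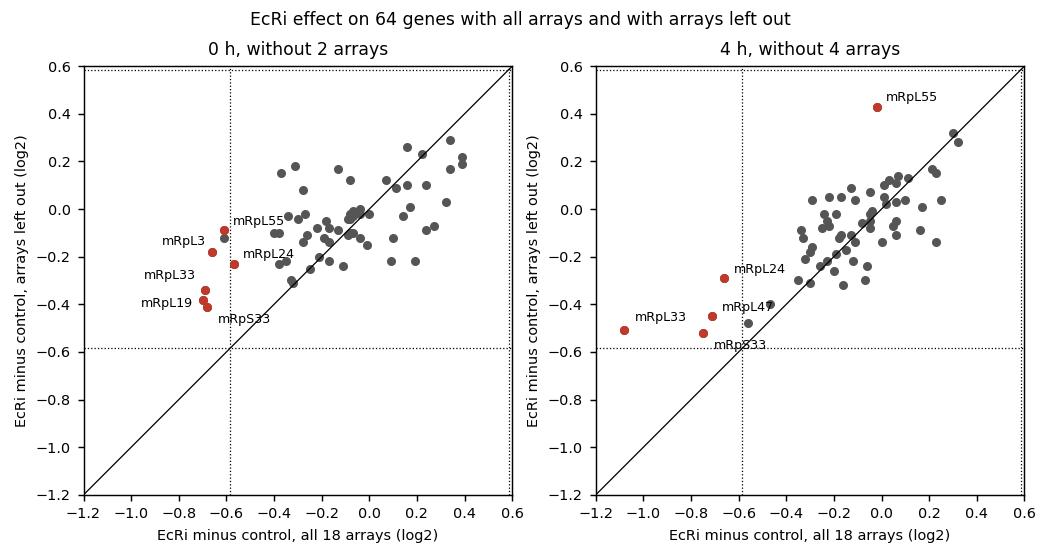
EcRi minus control log2 difference of each of the 64 genes with all 18 arrays (horizontal axis) against the fit without 2 arrays at 0 h or without 4 arrays at 4 h, where 1 EcRi array is left (vertical axis); the diagonal marks equality, dotted lines mark 1.5-fold, and red marks the genes named in the plot. With arrays left out the points lie between -0.41 and 0.29 at 0 h and between -0.52 and 0.43 at 4 h, all within 1.5-fold.

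With no fold limit 12 genes passed the adjusted p at 4 h, 11 lower and 1 higher in EcRi, against 24.2% of all probe sets. Of these, mRpL14, mRpL30, mRpL32, mRpS25 and mRpS33, lower in EcRi, and mRpS35, higher, had also passed at 0 h in the same direction. The share of all probe sets that passed at both times is not given, so this overlap is not read as a trait of the genes. Without 2 arrays mRpL30 (adjusted p = 0.18) and mRpS35 (0.21) no longer passed at 0 h. Without 4 arrays (1 EcRi array at 4 h) the 4 h differences of all 6, in the order named, were -0.18, -0.05, -0.31, -0.19, -0.52 and 0.32. mRpL32, a large-subunit protein with a bacterial counterpart, read 142, 143 and 151 in EcRi against 186, 171 and 190 in control prepupae at 0 h (-0.32 ± 0.08, adjusted p = 0.019). At 4 h it read 139, 143 and 150 in EcRi against 177, 193 and 164 in control prepupae (-0.30 ± 0.08, adjusted p = 0.019). Neither pair of groups overlapped. mRpL14, whose bacterial counterpart lies at the interface between the subunits, differed by -0.38 ± 0.11 at 0 h and -0.30 ± 0.11 at 4 h, with an adjusted p of 0.050 at the earlier and 0.078 at the later time. mRpS25 was the dimmest of the genes and under the floor on 6 of the 18 arrays, so that its difference of -0.25 ± 0.05 at 0 h (adjusted p = 0.0094) is understated.

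The proteins around which translation factors work showed no called difference, as did most of the genes: 61 of 64 were called in no contrast. mRpL12 encodes the stalk protein of the large subunit, and mRpL10 and mRpL11 encode its neighbours at the base of the stalk. On its brighter probe set mRpL12 differed by -0.02, -0.07 and -0.07 (each ± 0.16) over the times -4, 0 and 4 h. The 95% interval on that probe set lay within 1.5-fold at each time, which does not hold for the dimmer one described below. mRpL10 differed by -0.07 ± 0.07, -0.17 ± 0.07 and -0.08 ± 0.07, and mRpL11 by 0.13 ± 0.13, -0.18 ± 0.13 and 0.16 ± 0.13, again with intervals within 1.5-fold. mRpS29, known in humans as the cell death protein DAP3, differed by 0.10 ± 0.14, -0.08 ± 0.14 and -0.32 ± 0.14 (adjusted p = 0.14 at 4 h). At all 3 times the interval lay within 1.5-fold for 30 of the 64 genes, and at none of them for 16, for which these arrays leave a 1.5-fold difference possible throughout.

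mRpL11 and mRpL12 were each read by a second, dimmer probe set. For mRpL11 neither probe set was called in any of the 9 contrasts, and the dimmer one read under the floor on 14 arrays. The dimmer probe set of mRpL12 read 190, 204 and 188 in EcRi against 573, 212 and 181 in control larvae at -4 h. It read 523, 184 and 198 in EcRi against 160, 162 and 196 in control prepupae at 0 h, and 292, 192 and 327 in EcRi against 161, 164 and 193 in control prepupae at 4 h. The 4 arrays of the larger left-out set read 292 to 573 there and the other 14 read 160 to 212. The EcRi effects on this probe set were -0.53, 0.64 and 0.62 (each ± 0.43) at -4, 0 and 4 h, and none was called. For the difference between its EcRi effects at -4 and 0 h it gave 1.17 ± 0.61 (adjusted p = 0.35). The brighter probe set gave -0.05, so the pair disagreed by more than 1 on the log2 scale.

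In control animals no gene was called through pupariation on all 18 arrays. From -4 to 0 h limma called 0 of 64, against 3.11% of all probe sets, and 9 had an unadjusted p under 0.05 (7 higher, 2 lower at 0 h), against 15.0%. The median change was 0.04, with the 0 h arrays all above the -4 h arrays for 17 genes and all below for 9, against 16.1% and 19.7% of all probe sets. The 95% interval of the change lay within 1.5-fold for 42 genes, against 53.4% of all probe sets. With no fold limit mRpL30, mRpL32 and mRpS25 passed the p as higher at 0 h. The share of all probe sets that did so is not given here, so this count is not read as a trait of the genes. mRpL30 read 204, 211 and 224 at -4 h and 268, 272 and 271 at 0 h, a change of 0.35 ± 0.07 (adjusted p = 0.014). These 3 genes also passed the p as lower in EcRi at 0 h, a comparison that uses the same control 0 h arrays. At 4 h, on other arrays, they passed it as lower in EcRi too, at -0.23 ± 0.07, -0.30 ± 0.08 and -0.19 ± 0.05. Without 2 arrays the rise in control animals still passed the limma adjusted p for mRpL30 (0.31 ± 0.08, adjusted p = 0.055) and mRpS25 (adjusted p = 0.081). For mRpL32 it did not (adjusted p = 0.16). The EcRi effect at 0 h then passed for mRpL32 and mRpS25 but not for mRpL30 (adjusted p = 0.18). On the 1 EcRi array left at 4 h without 4 arrays, the EcRi differences of mRpL30, mRpL32 and mRpS25 were -0.05, -0.31 and -0.19. All EcRi 4 h values of mRpS25 (71.6, 90.1 and 69.8) were raised to the floor. The difference of mRpS25 therefore could not change with the EcRi arrays left out.

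From 0 to 4 h limma again called 0 of 64 genes in control animals, against 4.6% of all probe sets, and 2 had an unadjusted p under 0.05, against 12.1%. The interval lay within 1.5-fold for 48 genes of 64, against 61.0% of all probe sets. mRpL19 and mRpL15 had the widest differences. mRpL19 read 78.2, 176 and 178 in control larvae at -4 h. In control prepupae it read 255, 223 and 219 at 0 h, against 137, 129 and 140 by 4 h. Its change from 0 to 4 h was -0.78 ± 0.29 with an adjusted p of 0.21, although the groups did not overlap. The error is pooled over groups that hold the discordant arrays: without 2 arrays the change was -0.78 ± 0.15 (adjusted p = 0.0072) and was called, the 1 gene so called against 3.38% of probe sets called lower, and without 4 arrays it was called as well (adjusted p = 0.00038, against 3.6%). mRpL15 rose by 0.51 ± 0.08 from 0 to 4 h (adjusted p = 0.00095), under the fold limit. The 1 gene called higher from -4 to 0 h without 4 arrays was mRpL33 (0.66 ± 0.21, adjusted p = 0.085), against 2.51% of probe sets called higher.

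In EcRi animals no gene was called either on all 18 arrays. From -4 to 0 h limma called 0 of 64 genes, but also 0.0% of all probe sets, and 3 genes had an unadjusted p under 0.05, against 4.32%. mRpL55 (-0.66), mRpL49 (-0.55) and mRpL1 (0.55) had the widest differences, with an adjusted p of 0.65 for each. Without 2 arrays these changes were -0.14, -0.03 and 0.25. From 0 to 4 h 0 genes were called, against 1.47%, and 8 had an unadjusted p under 0.05, against 12.6%. The 95% interval lay within 1.5-fold for 39 genes. Without 2 arrays mRpL33 was called lower at 4 h (-0.78 ± 0.27, adjusted p = 0.091), against 5.11% of probe sets called lower, and without 4 arrays it was not (-0.22 ± 0.29, on 1 EcRi array at 4 h).

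Whether the EcRi effect differed between times was tested as an interaction. From -4 to 0 h 0 genes were called, against 1.44% of all probe sets, and 12 had an unadjusted p under 0.05, against 14.1%. mRpL33 had the widest difference between EcRi effects, -1.16 ± 0.47 (adjusted p = 0.34). From 0 to 4 h 0 were called, against 2.65%, and 5 had an unadjusted p under 0.05, against 10.4%. mRpL15 passed the p but not the fold limit there (-0.46 ± 0.11, adjusted p = 0.043), as did mRpL48 (-0.26 ± 0.06, adjusted p = 0.054). The 2 interactions share the arrays at 0 h. Calls at 4 h and their absence at -4 h are thus not a tested difference for mRpL33, mRpS33 or mRpL47.

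The 43 mRpL genes had median EcRi effects of 0.00, -0.17 and -0.11 at -4, 0 and 4 h, and the 21 mRpS genes -0.07, -0.07 and -0.19. The 39 genes with a bacterial counterpart had -0.02, -0.11 and -0.12, and the 25 without had 0.02, -0.09 and -0.05, a grouping made after the values were seen. Differences between these groups were not tested. Across the 18 arrays the correlation between pairs of the 64 genes had a median of 0.12 over 2016 pairs (0.11 over 16 arrays), which compares with 0.38 among 65 oxidative phosphorylation genes and 0.24 among 37 cytoplasmic ribosomal protein genes. These values share the arrays and their departures, and are a description of these arrays.

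Other genes of mitochondrial translation were also measured. tko (mRpS12) and bonsai (mRpS15), mitoribosomal proteins known by older names, and CRIF, whose mammalian counterpart belongs to the large subunit, were called at no time in EcRi. tko read 411, 236 and 473 in EcRi against 262, 262 and 286 in control prepupae at 4 h, with overlapping groups and a difference of 0.41 ± 0.20 (adjusted p = 0.19). Of 16 mitochondrial translation and transcription factors none was called at any of the 3 times, although mRF1 was called higher at 4 h without 4 arrays, on 1 EcRi array. Their widest differences were 0.73 (Lrpprc2, at 0 h) and -0.70 (mTerf3, at -4 h), and 1 of the 16 was at or below the floor on all arrays. Of 14 mitochondrial aminoacyl-tRNA synthetases, which charge the tRNAs that the mitoribosome reads, 1 was higher and 1 lower at 4 h, against 13.4% of all probe sets. Of the 14, 5 were at or below the floor on all arrays and could not be called. SerRS-m read 376 ± 51.5 in EcRi and 236 ± 21.6 in control prepupae (0.67 ± 0.15, adjusted p = 0.010), and PheRS-m 292 ± 76.3 in EcRi and 438 ± 55.1 in control prepupae (-0.61 ± 0.17, adjusted p = 0.031). Without 4 arrays, on 1 EcRi array, neither was called.

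Calls also stood among genes for import and for the complexes that hold mitochondrially made subunits. Of 65 nuclear genes of oxidative phosphorylation 1 was lower at -4 h (2.94% of all probe sets were called either way), 1 higher and 1 lower at 0 h (7.69% of all), and 10 lower at 4 h (15.4%, against 9.08% of all called lower), with median EcRi effects of 0.04, -0.22 and -0.39. ATPsynbeta, the catalytic subunit of ATP synthase, read 162 ± 60.5 in EcRi and 373 ± 43.7 in control prepupae at 4 h (-1.26 ± 0.33, adjusted p = 0.021). Of 16 import genes, 1 was lower at 0 h (against 4.68% of all) and 4 at 4 h (against 9.08%), the 4 being Hsc70-5, Tim13, Tim9a and Tom20. Tim9a, a chaperone of the space between the membranes, read 101 ± 29.3 in EcRi and 201 ± 12.8 in control prepupae at 4 h (-0.92 ± 0.22, adjusted p = 0.013). These counts depend on the arrays included, as does the share of all probe sets. Without 2 arrays 15 oxidative phosphorylation genes and 4 import genes were lower at 4 h, against 12.0% of all probe sets. On the 1 EcRi array left without 4 arrays both counts and the share of all probe sets called lower were smaller. Of 37 genes listed by their symbols as cytoplasmic ribosomal protein genes, RpL7-like was lower at 0 and 4 h. Whether it encodes a part of that ribosome was not examined. The medians of the list were 0.05, -0.03 and -0.02. Whether these lists differ from the mitochondrial ribosomal protein genes was not tested.

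**Figure D5:**
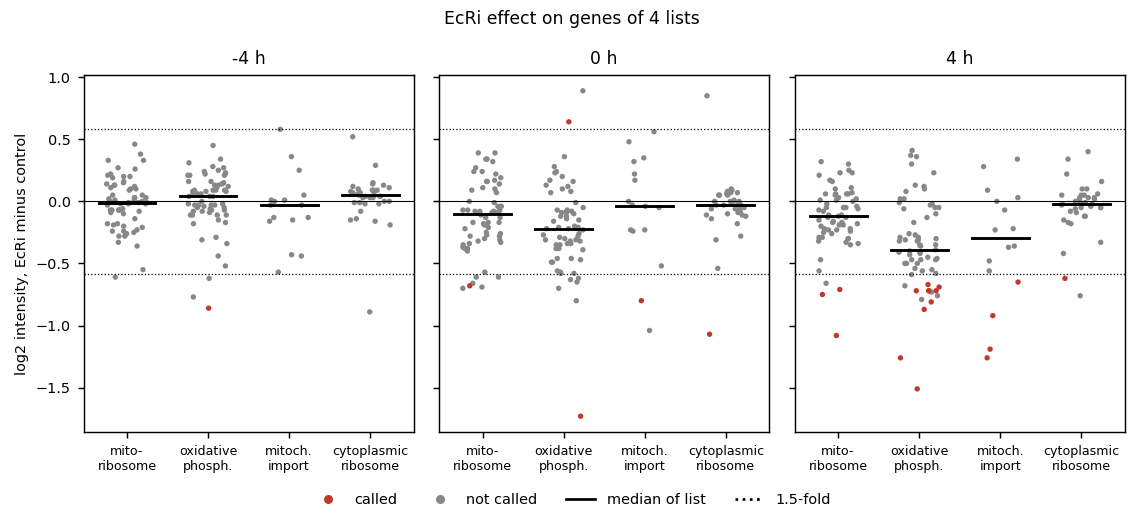
Log2 intensity in EcRi minus control animals at -4, 0 and 4 h for genes of 4 lists (points, spread sideways for legibility; red where called), with the median of each list (bars) and 1.5-fold (dotted lines). At 4 h the medians are -0.12 for mitochondrial ribosomal proteins, -0.39 for oxidative phosphorylation, -0.30 for import and -0.02 for cytoplasmic ribosomal proteins.

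Markers of larval tissues differed widely between EcRi and control animals, and the summed intensity of the 64 genes by much less. That sum lay between 22142 and 24258 on EcRi arrays and between 23982 and 24912 on control arrays at 4 h. The summed intensity of 15 larval gut genes lay between 72053 and 76735 on EcRi arrays and between 11358 and 13493 on control arrays, with 14 of the 15 called higher. For 6 glue genes of the salivary gland it lay between 56385 and 59730 on EcRi arrays and between 2787 and 3630 on control arrays, with 6 called higher. For 9 muscle genes it lay between 6512 and 7458 on EcRi arrays and between 3111 and 3498 on control arrays, with 6 called higher. Fat body genes lay between 35342 and 39565 on EcRi arrays and between 44012 and 45733 on control arrays (1 of 3 lower). Proliferation genes lay between 1914 and 2114 on EcRi arrays and between 2148 and 2319 on control arrays. Of these 10 genes 1 was called lower, and 3 were at or below the floor on all arrays and could not be called. Neuronal genes lay between 1570 and 1691 on EcRi arrays and between 1483 and 1687 on control arrays. Of these 7 genes none was called, and 1 was at or below the floor on all arrays. Over all probe sets limma called 13.4% at 4 h, 9.08% as lower. At 0 h 12 gut genes and 6 glue genes were called higher in EcRi, against 7.69% of all probe sets called either way. At -4 h 2 gut genes were, against 2.94% called either way. The part of these differences in the values of the mitochondrial ribosomal protein genes was not tested.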

How the data were processed

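RNA of whole animals was read on 18 Affymetrix Drosophila Genome Arrays, 3 per group. The deposited values are linear intensities of probe sets, normalised and summarised by the authors with dChip 1.2; the sources used here name neither the probe-level model nor the baseline array. Median intensities of the arrays were 222 to 248. Precision is limited by the number of arrays. Groups came from the sample labels, which do not pair replicates.

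Values were floored at the 20th percentile (91.6) and log2 was taken. limma 3.58.1 under R 4.3.3 estimated 6 group means from the 18 arrays together (12 residual degrees of freedom, prior 0.588), and 9 contrasts were tested; counts over members were made with Python 3.11.15. limma stands in for the significance analysis of microarrays of the study, whose adjusted p limit of 0.10 and fold limit of 1.5 were kept. On simulated data for the EcRi effect at 4 h with 13966 probe sets, 73 of 100 probe sets changed by 1 log2 unit and 97 of 100 changed by 2 were called. Probe sets were named from the platform annotation (12442 with 1 symbol, 327 with several, 1197 with none), and no sequence or coordinate was used.

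The genes and lists were chosen with earlier results of these data known. Named genes are, per contrast, the called members (or the 3 largest changes), the dimmest and brightest, members whose probe sets disagree by over 1, tko, bonsai and CRIF, and up to 4 called genes of other lists. mRpL3, mRpL14, mRpL24, mRpL48, mRpS35, proteins around the stalk, mRpS29 and others passing the adjusted p alone were added after their values were seen. The alternatives are a floor at the 40th percentile, a pseudocount equal to the floor added before log2 instead of flooring, quantile normalisation, aligned array medians, a variance trend with robust fitting, testing the brighter probe sets alone, compared arrays only, the replicate number as a block, 1 probe set per gene, other fold limits, and arrays left out.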

Additional observations from a re-analysis of the deposited data

How the results depend on the processing

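At -4 h the count of called genes was 0 under each of 31 alternatives, and so were those of the EcRi change from -4 to 0 h and of the first interaction. At 0 h it was 0, in place of 1, with a floor at the 40th percentile, a pseudocount, the compared arrays only, brighter probe sets only, a 2-fold limit, and without 2 or 4 arrays, and 8 with no fold limit. With each array left out in turn it lay between 0 and 4: 0 without EcRi 0 h replicate 1 or any control 0 h array, 2 without EcRi 0 h replicate 2 or control -4 h replicate 1, and 4 without EcRi 0 h replicate 3. At 4 h it was 0, in place of 3, with a floor at the 40th percentile, brighter probe sets only or without 4 arrays (1 EcRi array left), 1 with a pseudocount or a 2-fold limit, and 12 with no fold limit. With each array left out it lay between 0 (without EcRi 4 h replicate 1) and 5 (without EcRi 4 h replicate 2). The brighter probe sets do not include mRpL33, mRpS33 or mRpL47. The cause of the other changes was not tested. For most alternatives in this section the share of all probe sets called is not given. The counts are therefore not read as changes of these genes apart from the rest of the array.

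For the change in control animals from -4 to 0 h the count was 1 without 4 arrays and 3 with no fold limit, and 0 to 1 with each array left out (1 without EcRi 0 h replicate 1). From 0 to 4 h it was 1 with the compared arrays only, without 2 or 4 arrays and with no fold limit, and 0 to 1 with each array left out (1 without EcRi 0 h replicate 1 or control -4 h replicate 1). For EcRi animals from 0 to 4 h it was 1 without 2 arrays and with no fold limit, and for the second interaction 2 with no fold limit. The median difference of the 64 genes stayed between -0.03 and 0.02 for larvae at -4 h, between -0.15 and -0.07 for prepupae at 0 h, and between -0.16 and -0.04 for those at 4 h. The differences of the brighter EcR probe set kept their side of the limits under each of 31 alternatives (the dimmer one was not run), and no called gene changed direction.

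Same-numbered arrays correlated in their deviations from the group means at -0.572 to 0.818 over 15 pairs per number, so the numbers were not taken as pairing. With the replicate number as a block, 0, 1 and 4 genes were called at -4, 0 and 4 h, mRpL24 being added at 4 h, and 0 in each of the other 6 contrasts.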
